A study of Mus musculus with 12 samples.

Results

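The genes that write, copy and erase DNA methylation were described in mouse gastruloids, aggregates of embryonic stem (ES) cells that form the germ layers and a body axis in culture. They were chosen by name and are 8 of the 38911 genes listed: *Dnmt1*, *Uhrf1*, *Dnmt3a*, *Dnmt3b*, *Dnmt3l*, *Tet1*, *Tet2* and *Tet3*. All 8 passed the filter on low counts, as did 16966 genes in all. Gastruloids of about 200 E14TG2a cells, a mouse ES cell line that the labels record as kept in 2i and LIF, were treated on day 3 and harvested on day 4. The 4 groups received 1X glucose (21.25 mM), no glucose, 3X glucose (63.75 mM) or 5 mM 2-DG in 1X glucose. 2-DG (2-deoxy-D-glucose) is a glucose analog. Each group has 3 libraries of polyA RNA, 1 from each of ES cell passages 13, 15 and 16, so all 12 libraries come from 1 line and the replicates are passages of it. The study's text speaks of PBS-treated gastruloids beside 2-DG, but the labels name no PBS for the 1X glucose libraries, which served here as the control of 2-DG and of the other glucose levels.

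DNA methylation in mammals is placed mainly on the cytosine of CpG. DNMT3A and DNMT3B place new methyl groups, with DNMT3L as a cofactor that has no catalytic activity of its own. After replication, UHRF1 binds hemimethylated DNA and recruits DNMT1, which copies the mark onto the new strand. The TET enzymes oxidise 5-methylcytosine, a step towards its removal. Naive ES cells in 2i are known for low methylation, and the epiblast gains it around implantation, when *Dnmt3b* is high.

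*Dnmt1*, *Uhrf1* and *Dnmt3a* are annotated with more than 1 start site, and the deposited counts of single transcripts give an estimate of which was used. Their sequences before the start are given first because the results below concern these genes most. The sequences are RefSeq promoters on the build GRCm38.p6, printed on the strand of the gene, and stretches that are exons of another transcript of the gene were left out, except that the 30 bases shown for *Dnmt1* lie in the first exon of the transcripts from its start site 2. In the first pair, capitals mark the only match to the E2F motif, spelled as TTTCCCGC, TTTCGCGC, TTTGCCGC or TTTGGCGC and searched on both strands. E2F factors are known as regulators of genes of the G1 to S transition.
Uhrf1 start site 2 (chr17:56304063-56304312, plus strand): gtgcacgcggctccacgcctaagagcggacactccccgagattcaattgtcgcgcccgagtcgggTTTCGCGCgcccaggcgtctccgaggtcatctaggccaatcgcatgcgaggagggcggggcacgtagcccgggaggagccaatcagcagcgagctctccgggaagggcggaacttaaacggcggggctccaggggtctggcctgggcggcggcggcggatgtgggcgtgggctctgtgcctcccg
Dnmt1 start site 3 (chr9:20952824-20952853, minus strand): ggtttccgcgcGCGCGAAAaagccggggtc
The match began 185 bases before the start of *Uhrf1* and 219 bases before that of *Dnmt1*, where it reads on the other strand. In the next pair, which contrasts the first and the internal start of *Dnmt3a*, capitals mark every CpG.
Dnmt3a start site 1 (chr12:3806730-3806979, plus strand): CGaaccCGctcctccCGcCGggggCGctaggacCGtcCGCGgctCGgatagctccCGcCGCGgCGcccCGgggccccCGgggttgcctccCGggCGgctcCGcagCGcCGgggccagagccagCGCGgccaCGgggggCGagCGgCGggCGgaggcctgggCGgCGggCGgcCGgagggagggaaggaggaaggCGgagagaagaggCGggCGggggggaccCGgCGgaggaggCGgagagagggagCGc
Dnmt3a start site 3 (chr12:3891494-3891727, plus strand): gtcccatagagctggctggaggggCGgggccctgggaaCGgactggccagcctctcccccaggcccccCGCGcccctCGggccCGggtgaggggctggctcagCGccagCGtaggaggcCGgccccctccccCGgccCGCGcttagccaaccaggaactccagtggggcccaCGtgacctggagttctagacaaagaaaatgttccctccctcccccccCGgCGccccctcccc

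In the 250 bases before a start, the first start site of *Dnmt3a* had 38 CpGs and the internal one 15. The median over 32851 mouse promoters was 6. Start site 2 of *Uhrf1* had 30 and start site 3 of *Dnmt1* had 26. The single start listed for *Tet2* had 51, more than 99.9% of promoters. *Dnmt3b* had 21, *Tet3* 17, *Tet1* 15 and the 3 start sites of *Dnmt3l* between 3 and 5. The E2F motif was found at 2 of the 15 start sites of the 8 genes, those of *Uhrf1* and *Dnmt1* shown above, and at 1.86% of all promoters. Counted by gene, it was in any listed promoter of 2.16% of genes and of 4 of the 12 S phase genes that had a promoter listed. These matches describe the letters of the windows and say nothing of binding.

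The libraries held 31902471 to 45956080 estimated counts, most in 1X glucose (38439471 or more). The gastruloids expressed *T*, the Brachyury gene of the primitive streak, at 64.6 to 330 CPM (counts relative to the TMM-scaled size of the library) and the neural progenitor gene *Sox2* at 35.6 to 156 CPM. *Zfp42*, a marker of naive ES cells, lay at 0.568 to 1.84 CPM, and the blood gene *Hbb-bh1* had no count in any library. The passage 13 libraries stood apart from the other passages, and values without them are given where a result rests on them. The labels do not say whether libraries of 1 passage came from 1 culture, and each group holds a passage once, so p-values measure the spread between these libraries.

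Per kilobase of exon, the 8 genes spanned a wide range in 1X glucose. The scale here is CPM divided by the length of all exons of the gene in kb. *Uhrf1* was highest at 97.3 ± 1.81 (SD, n = 3), above *Dnmt1* at 73.7 ± 4.47 and *Dnmt3b* at 37.8 ± 2.62. *Dnmt3a* followed at 15.5 ± 1.82, *Tet3* at 5.86 ± 1.20, *Tet1* at 4.70 ± 0.820 and *Tet2* at 1.79 ± 0.225. *Tet3* and *Tet1* overlapped between libraries, and no other neighbours in this order did. *Dnmt3l* came last at 0.0659 ± 0.00685. It had 0 to 13 counts in the 12 libraries, 6 to 9 of them in 1X glucose, and 0 counts in 1 library each of no glucose and 3X glucose. At this depth no difference in *Dnmt3l* was detectable between groups, and it is described here by its counts.

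**Figure D1:**
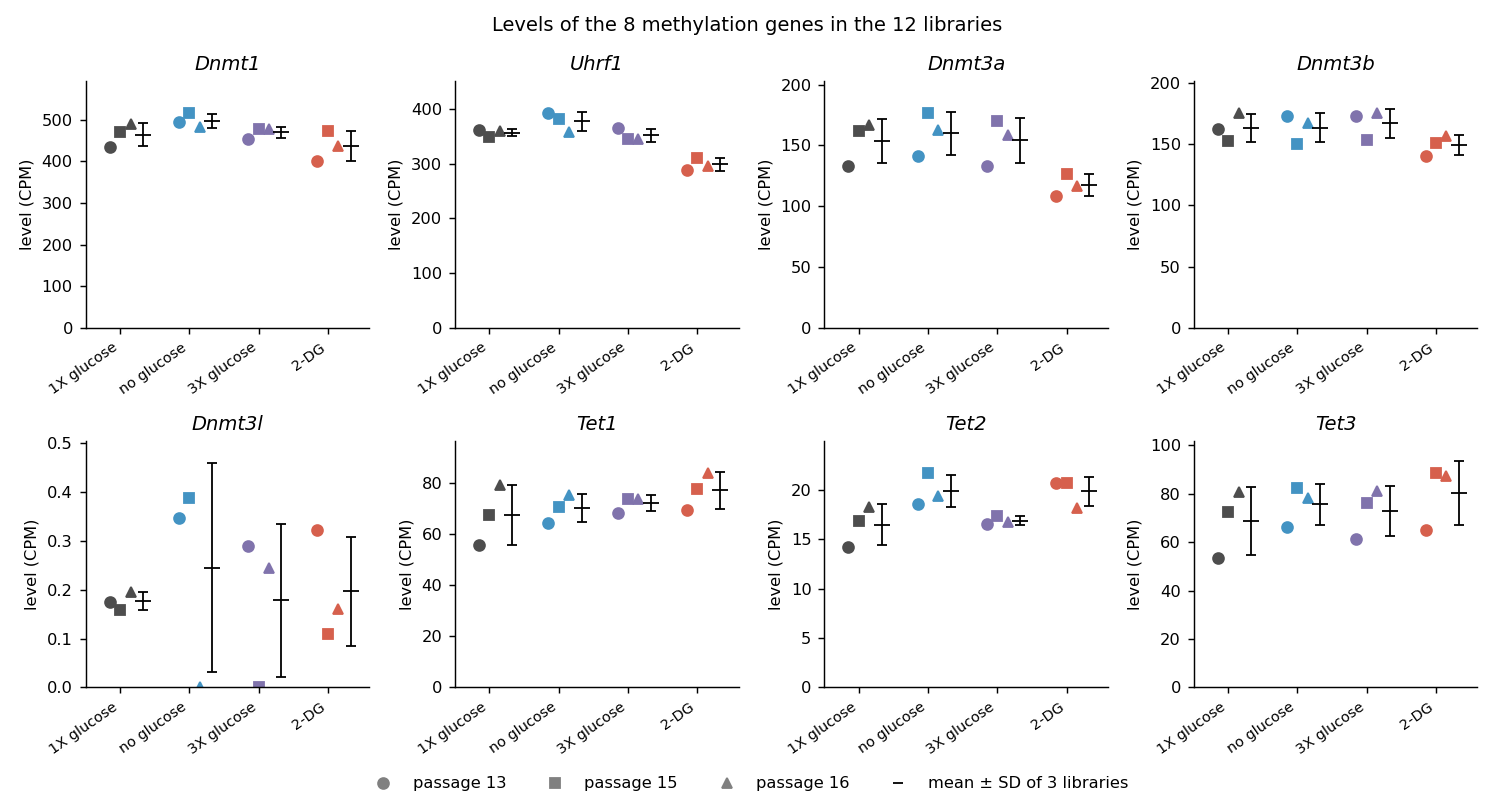
Level of each of the 8 genes (y axis, CPM, starting at 0) in every library, by treatment group (x axis); symbols give the ES cell passage and bars the mean ± SD of 3 libraries. The 2-DG libraries of *Uhrf1* (289 to 311 CPM) and *Dnmt3a* (108 to 126 CPM) lie below all libraries of the other 3 groups.

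*Uhrf1*, which recruits DNMT1 to replicated DNA, read 361, 349 and 360 CPM in 1X glucose (passages 13, 15 and 16). It read 392, 382 and 358 CPM in no glucose, and 365, 345 and 345 CPM in 3X glucose. In 2-DG it read 289, 311 and 296 CPM. All 3 libraries of 2-DG were therefore below all 9 others, and in 2-DG the gene was lower than 1X glucose in 3 of 3 passages. The share of all genes set apart from the 9 others in this way was not counted, here and for *Dnmt3a* below. The level of *Uhrf1* fell by 0.26 on the log2 scale against 1X glucose (standard error 0.047, 95% interval −0.36 to −0.15, edgeR quasi-likelihood adjusted p = 0.00502), which is 0.836-fold. Against no glucose it fell by 0.34 (standard error 0.047, adjusted p = 0.00115, edgeR). In bulk RNA, fewer cells of a type and less RNA per cell cannot be told apart, here and in every result below. Both calls held in all 6 fits that left out 1 library of the groups compared, and without passage 13 the change against 1X glucose was −0.23 (adjusted p = 0.0232). With the transcript of highest count alone, the log2 change against 1X glucose was −0.43 and was not called (adjusted p = 0.154).

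*Dnmt1*, the maintenance methyltransferase, was more even. It read 434, 471 and 489 CPM in 1X glucose and 402, 473 and 437 CPM in 2-DG, so the groups overlapped. The log2 change was −0.09 (95% interval −0.23 to 0.05, adjusted p = 0.395, edgeR). In no glucose it read 494, 516 and 482 CPM, above all libraries of 2-DG and of 3X glucose. The share of all genes with such separations was not counted. On the log2 scale 2-DG differed from no glucose by −0.19 (adjusted p = 0.0683, edgeR). This was called when passage entered the model as a block (−0.19, adjusted p = 0.00621, edgeR), by DESeq2 (adjusted p = 0.0371) and without the 2-DG library of passage 15 (−0.24, adjusted p = 0.0376). In 3X glucose *Dnmt1* read 455, 478 and 477 CPM.

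Both genes were read almost wholly or mainly from 1 start. Start site 3 of *Dnmt1* took 94.4% to 95.3% of its counts in the 12 libraries, and start site 1, which lies 7265 bases upstream, took 0 to 2 counts. Start site 2 of *Uhrf1*, 976 bases after the first, took 66.7% to 90.7% (median 81.1%). The rest of *Uhrf1* fell on start site 1 (4.29% to 12.96%) or on model transcripts that could not be placed (4.54% to 20.4%). These shares are StringTie's division of reads between overlapping transcripts, so they carry an error that the counts do not show.

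Among the genes for new methylation, *Dnmt3a* changed and *Dnmt3b* was not called. *Dnmt3a* read 133, 162 and 166 CPM in 1X glucose, 141, 176 and 162 CPM in no glucose, 133, 170 and 159 CPM in 3X glucose, and 108, 126 and 117 CPM in 2-DG. The highest library of 2-DG was below the lowest library of each other group, and 2-DG was lower than 1X glucose in 3 of 3 passages (−0.30, −0.36 and −0.51 on the log2 scale). The fall was 0.39 against 1X glucose (standard error 0.12, 95% interval −0.65 to −0.14, adjusted p = 0.0411, edgeR), which is 0.762-fold. Against no glucose it was 0.45 (standard error 0.12, adjusted p = 0.0223, edgeR), a call lost in 4 of 6 fits that left out 1 library (adjusted p up to 0.0828) and with the most abundant transcript alone (adjusted p = 0.0817). The call against 1X glucose held in 1 of 6 fits that left out 1 library, the one without 1X glucose passage 13 (adjusted p = 0.0226), and was lost in the others with an adjusted p up to 0.122. It was also lost with the curated transcripts (adjusted p = 0.0745) and with the most abundant transcript alone (adjusted p = 0.143, edgeR). With a passage block it was −0.39 with a standard error of 0.041 (adjusted p = 4.93e-05), and without passage 13 it was −0.43 (adjusted p = 0.0033).

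Most counts of *Dnmt3a* were those of its short form. Start site 3, 84764 bases after the first and inside the gene, gives the transcript of DNMT3A2, the isoform known from ES and germ cells that lacks part of the N-terminus. It took 89.1% to 97.3% of the counts of *Dnmt3a* (median 92.9%), whereas the first start, which gives the full-length form, took 0% to 4.87%. Model transcripts with no placed start took 0.987% to 10.9%, and which form they belong to was not determined. The short form is that of start site 3. This is the start with 15 CpGs in the sequences above, against 38 at the first start, which was given few counts. These shares too are StringTie's division of reads between overlapping transcripts. The antisense neighbour *Dnmt3aos* had 0 or 1 count per library.

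**Figure D2:**
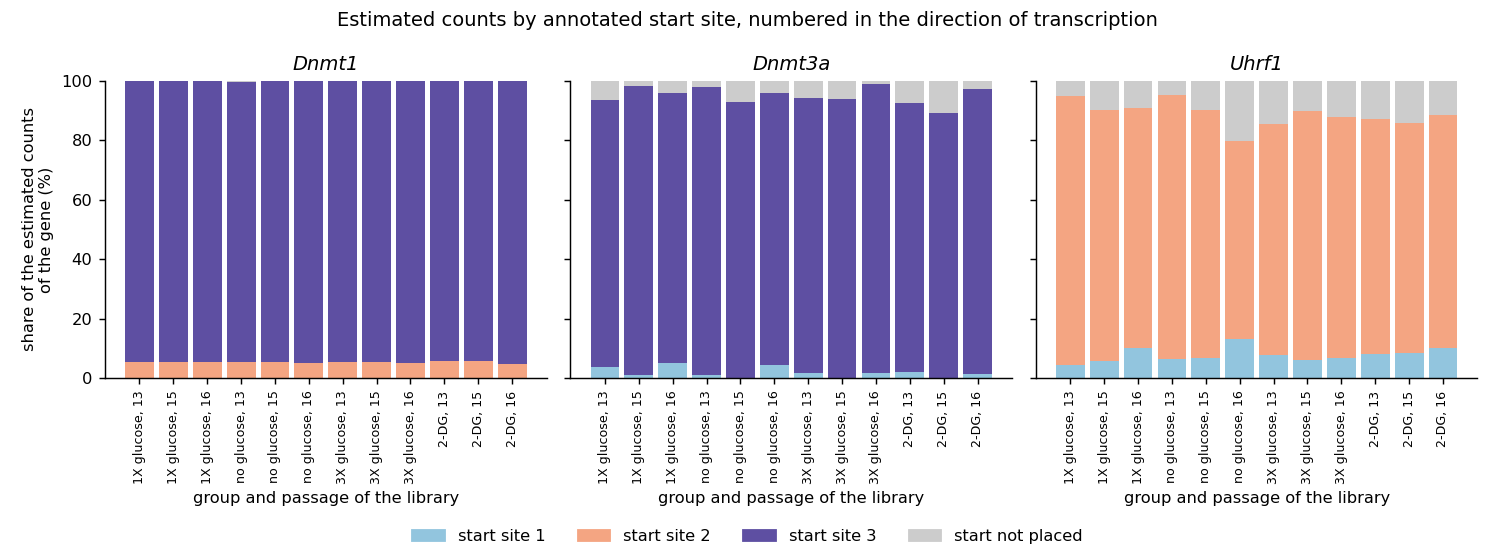
Share of the estimated counts of *Dnmt1*, *Dnmt3a* and *Uhrf1* (y axis, %) by annotated start site in each of the 12 libraries (x axis, group and passage); start sites are numbered in the direction of transcription and grey marks transcripts with no placed start. Start site 3 of *Dnmt1* took at least 94.4%, start site 3 of *Dnmt3a* at least 89.1% and start site 2 of *Uhrf1* at least 66.7% in every library.

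*Dnmt3b*, the main enzyme of new methylation in the epiblast, read 162, 153 and 175 CPM in 1X glucose and 141, 151 and 157 CPM in 2-DG. The groups overlapped, and the log2 change was −0.13 (95% interval −0.30 to 0.04, adjusted p = 0.276, edgeR). In no glucose it read 173, 150 and 167 CPM and in 3X glucose 173, 153 and 175 CPM. Since the reads of *Dnmt3b* are spread over 22 transcripts with no more than 21.3% on any one in any library, no single form is described. A copy in the mouse genome, *Dnmt3b-ps1*, was not listed in the files, and reads that it might share with *Dnmt3b* cannot be told apart. The log2 ratio of *Dnmt3b* to *Dnmt3a* counts, which does not depend on library depth, was 0.0923 ± 0.184 in 1X glucose and 0.351 ± 0.0868 in 2-DG (SD, n = 3). It was higher in 2-DG in 3 of 3 passages, by 0.0913, 0.337 and 0.348, but the difference of 0.259 gave p = 0.2 in an exact permutation test (two-sided, 2 ratios tested, and 0.1 is the smallest p that 3 against 3 libraries allow).

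The mean of each *Tet* gene was higher in 2-DG than in 1X glucose, and the differences were called only with a passage block. *Tet1* read 55.7, 67.6 and 79.2 CPM in 1X glucose and 69.5, 77.6 and 83.9 CPM in 2-DG. *Tet3* read 53.3, 72.6 and 80.7 CPM in 1X glucose and 65.0, 88.7 and 87.2 CPM in 2-DG. Both were above the 1X glucose library of the same passage in 3 of 3 passages, while the groups overlapped as a whole. *Tet2*, which lacks the DNA-binding CXXC domain of the other TETs' long forms, read 14.2, 16.8 and 18.3 CPM in 1X glucose and 20.7, 20.7 and 18.1 CPM in 2-DG, higher in 2 of 3 passages. The log2 changes were 0.19 for *Tet1* (95% interval −0.07 to 0.45, adjusted p = 0.299), 0.27 for *Tet2* (0.04 to 0.50, adjusted p = 0.0988) and 0.22 for *Tet3* (−0.16 to 0.60, adjusted p = 0.422, edgeR). With a passage block all 3 were called, at 0.20 for *Tet1* (adjusted p = 0.0196), 0.27 for *Tet2* (adjusted p = 0.0356) and 0.23 for *Tet3* (adjusted p = 0.00732). Without the 4 libraries of passage 13 and with no block, none of them was called, at 0.14, 0.14 and 0.20 (adjusted p = 0.262, 0.364 and 0.0599). Against no glucose, none of the *Tet* genes was called higher in 2-DG, without or with the block. The means of *Tet1*, *Tet2* and *Tet3* were 70.1, 19.9 and 75.7 CPM in no glucose. They were 77.0, 19.8 and 80.3 CPM in 2-DG, and 67.5, 16.4 and 68.8 CPM in 1X glucose. The log2 ratio of *Tet1* to *Tet3* counts was −0.0220 ± 0.0818 in 1X glucose and −0.0495 ± 0.145 in 2-DG (SD, n = 3), and the difference of −0.0275 gave p = 0.9 in the exact permutation test.

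The transcript counts of *Tet2* jumped between libraries while its total did not. The transcript NM_001040400.2 took 0% to 98.7% of the gene's counts and XM_011240068.3 took 0% to 100%, with both extremes inside single treatment groups. The sum over transcripts stayed between 14.2 and 21.7 CPM. *Tet1* and *Tet3* varied in the same way, with 0.169% to 88.1% on the main *Tet1* transcript and 0.952% to 62.6% on that of *Tet3*. The comparisons of the *Tet* genes given here rest on the gene totals.

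**Figure D3:**
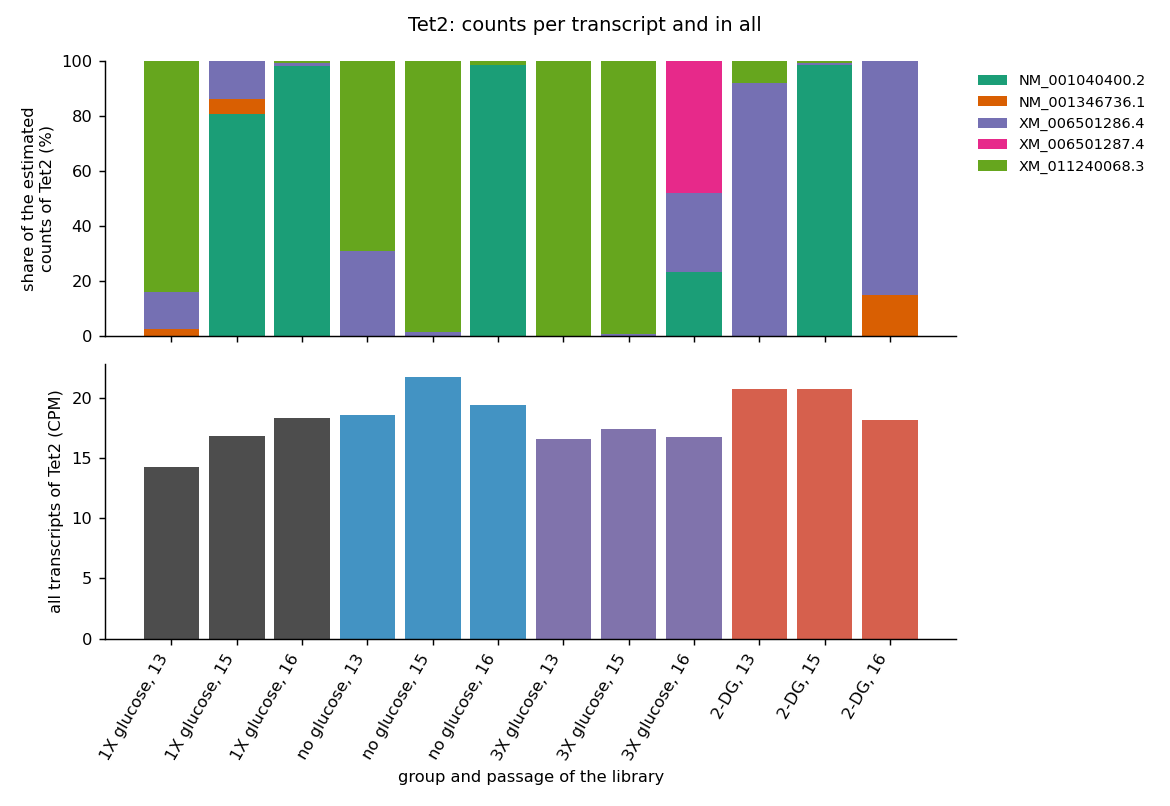
Upper panel: share of the estimated counts of *Tet2* given to each RefSeq transcript (y axis, %) in the 12 libraries (x axis, group and passage); lower panel: the level of the gene over all transcripts (y axis, CPM). The transcript with most counts changes from library to library, from 0% to 98.7% for NM_001040400.2, while the total stays between 14.2 and 21.7 CPM.

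Counted together, 2 of the 8 genes were called between 2-DG and 1X glucose, both lower, where 17.6% of all genes tested were called and 8.51% were lower. The same 2 genes, *Uhrf1* and *Dnmt3a*, were the only ones whose 2-DG and 1X glucose libraries did not overlap, which held for 35.4% of all genes. The median log2 change over the 8 genes was 0.03, beside 0.00 over all genes. With a passage block, 5 of 8 were called, 3 higher and 2 lower, where 21.1% of all genes were higher and 20.2% lower. Against no glucose, 2 of 8 were called, both lower, where 18.9% of all genes were called and 9.04% were lower. The block added *Dnmt1*, making 3 of 8 lower, where 21.5% of all genes were lower. The comparisons of 2-DG with 1X and with no glucose share the 2-DG libraries and are not independent.

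**Figure D4:**
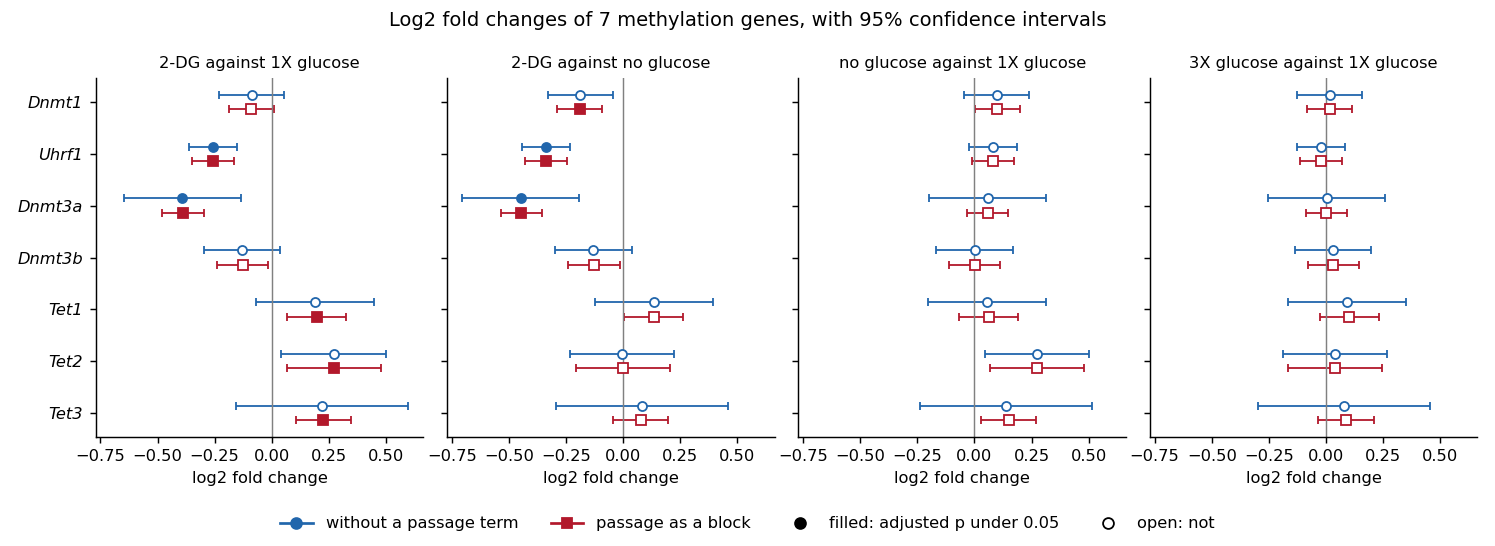
Log2 fold change (x axis) of 7 of the genes (y axis; *Dnmt3l* is left out for its low counts) in 4 comparisons, with 95% confidence intervals, from the fit without a passage term (circles) and with the passage as a block (squares); filled symbols passed an adjusted p of 0.05. *Uhrf1* and *Dnmt3a* are filled in both comparisons of 2-DG, the 3 *Tet* genes against 1X glucose only with the block, and no symbol is filled in the comparisons of glucose levels.

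The level of glucose itself gave no call among the 8 genes. In edgeR without a block, none of 8 was called between no glucose and 1X glucose (0.0118% of all genes), between 3X and 1X glucose (0% of all genes) or between 3X and no glucose (0.0118% of all genes). With the block it was again 0 of 8 in each, where 0.0177%, 0% and 0.802% of all genes were called. DESeq2 also gave 0 of 8 in each, where it called 0.0707%, 0.0118% and 0.183% of all genes. At an unadjusted p under 0.05, edgeR gave 1 of 8, *Tet2*, in the comparisons of no glucose with 1X glucose (1.8% of all genes) and with 3X glucose (4.33% of all genes), and 0 of 8 between 3X and 1X glucose (1.05% of all genes). *Tet2* read 18.6, 21.7 and 19.4 CPM in no glucose and 16.6, 17.4 and 16.7 CPM in 3X glucose, so its no glucose libraries lay above all those of 1X and 3X glucose. The share of all genes with such a separation was not counted. The change from 1X to no glucose was 0.27 on the log2 scale (95% interval 0.05 to 0.50, adjusted p = 1.00, edgeR). Over the 7 genes other than *Dnmt3l*, the intervals ran from −0.24 to 0.51 between no glucose and 1X glucose, and from −0.30 to 0.46 between 3X and 1X glucose.

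The genes also differed between ES cell passages. With treatment in the model, 4 of 8 differed between passages, where 46.2% of all genes did (F test of edgeR). The test takes the 4 libraries of a passage as replicates, though they may share 1 culture. Passage number therefore cannot be told apart from anything else that these libraries shared. These were *Tet3* (adjusted p = 0.000122), *Dnmt3a* (adjusted p = 0.000233), *Tet1* (adjusted p = 0.00339) and *Dnmt3b* (adjusted p = 0.0427). In every one of the 4 treatment groups, passage 13 had the lowest library for *Tet1*, *Tet3* and *Dnmt3a*. *Tet3* was at 53.3 to 66.3 CPM in the 4 libraries of passage 13, and at 72.6 to 88.7 CPM in those of passages 15 and 16, with no overlap. The shares of all genes that were lowest in passage 13 in every group, or set apart in this way, were not counted. Passage 15 was above passage 13 by 0.38 on the log2 scale for *Tet3*, 0.29 for *Dnmt3a*, 0.17 for *Tet1* and 0.12 for *Dnmt1*, which makes 4 of 8 called, all higher, where 41.8% of all genes were called. Passage 16 was above passage 13 by 0.42 for *Tet3*, 0.28 for *Tet1* and 0.22 for *Dnmt3a*, 3 of 8 called, where 40.2% of all genes were. Between passages 16 and 15 none of 8 was called, where 4.2% of all genes were, and 2 of 8, *Dnmt3b* (0.15) and *Tet1* (0.11), had an unadjusted p under 0.05 in edgeR, where 21.4% of all genes had one. *Uhrf1* did not pass the test (adjusted p = 0.559), with a median of 363, 347 and 352 CPM over the 4 libraries of passages 13, 15 and 16.

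The genes that work with these enzymes were counted from lists written from general knowledge, with earlier results of these data known. The counts are from the fit without a passage block unless it is named. Over all 16966 genes tested, 17.6% were called between 2-DG and 1X glucose, 1547 genes higher and 1443 (8.51%) lower. With the block, 21.1% were higher and 20.2% lower. Every list count below is to be read beside these shares. Of 16 tested targeting and maintenance partners, 2 rose in 2-DG against 1X glucose and none fell, while with the block 5 rose and 4 fell. The risers were *Zfp57* (0.25, adjusted p = 0.0204) and *Zfp445* (0.20, adjusted p = 0.0412, edgeR), zinc finger proteins that keep methylation at imprinted regions. *Hells* and *Cdca7*, which together open chromatin for maintenance, were at −0.10 and −0.27 and did not pass (adjusted p = 0.133 for *Hells*). The 2-DG libraries of both, and of *Usp7* of the same list, lay below all libraries of the other groups. Those of *Zfp57* and *Zfp445* lay above all of them. The share of all genes set apart in these ways was not counted. *Hells* was at 223 to 228 CPM in 2-DG and at 232 CPM or more elsewhere. *Cdca7* was at 198 to 230 CPM in 2-DG and at 238 CPM or more elsewhere. *Prdm14*, a repressor of *Dnmt3b* and *Dnmt3l* in naive cells, had 12 to 20 counts in 1X glucose, 3 to 10 in no glucose, 0 to 17 in 3X glucose and 0 to 4 in 2-DG. It was not called between 2-DG and 1X glucose (adjusted p = 0.0770, edgeR), but was with the block (adjusted p = 0.0176). Of 8 readers of methylated CpG, 2 rose, *Mbd2* (0.28) and *Zbtb4* (0.62), and none fell (3 and 1 with the block). Of 15 genes of the base excision steps that complete demethylation, 1 fell, *Apex1*, the abasic site endonuclease (−0.17), and none rose. With the block 3 fell and 3 rose. *Tdg*, the glycosylase that removes the oxidised bases made by TET enzymes, read 72.3 CPM in both groups on average (adjusted p = 0.996).

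The methyl donor cycle, which supplies S-adenosylmethionine, moved in both directions. *Shmt2*, a serine hydroxymethyltransferase of folate metabolism, rose (0.44, adjusted p = 0.00320, edgeR). *Mat2b*, the regulatory subunit of the synthase of S-adenosylmethionine (−0.31, adjusted p = 0.00509), and *Ahcy*, which clears its product (−0.16, adjusted p = 0.0241, edgeR), fell. *Shmt2* read 129 to 140.4 CPM in 1X glucose and 168 to 191 CPM in 2-DG, with no overlap, which held for 35.4% of all genes. Of 12 genes listed as tied to TET cofactors or as TET partners, 3 rose and none fell, while with the block 5 rose and 1 fell. They were *Slc23a2*, a vitamin C transporter (0.48), *Ogt*, the O-GlcNAc transferase that binds TETs (0.23), and *Idh2*, which makes 2-oxoglutarate (0.21). Of 17 germline genes that promoter methylation is known to silence, 9 had enough counts to be tested. Of these 1 fell, *Tdrkh* (−1.28, adjusted p = 0.0402, edgeR), and none rose, while with the block 1 fell and 2 rose. *Tdrkh* was well expressed, at 18.1 to 35.3 CPM in 1X glucose and 7.51 to 13.7 CPM in 2-DG. *Dazl*, the usual example, had 0 to 8 counts per library.

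Cell cycle and cell type genes moved with 2-DG beside these results. Of 16 S phase genes, 3 fell, *Ccne1* (−0.31), *Mcm7* (−0.19) and *Mcm3* (−0.16), none rose, and 14 of 16 were below 0 with a median of −0.14. With the block 10 fell and 2 rose. The summed level of the list was 3905 to 4057 CPM in 1X glucose and 3596 to 3704 CPM in 2-DG. *Uhrf1* is known to peak in S phase, and the part of this shift in its fall was not tested. Of 10 genes of the primitive streak and nascent mesoderm, 4 fell, *Mixl1*, *Wnt3a*, *T* and *Hes7*, and none rose (6 fell with the block; summed level 1600 to 1747 CPM in 1X glucose, 895 to 1385 CPM in 2-DG). Of 11 pluripotency and epiblast genes, *Tfcp2l1* rose (1.05), none fell, and 8 of 11 were above 0 (6 rose and 1 fell with the block; summed level 43.9 to 61.02 CPM in 1X glucose, 65.7 to 82.5 CPM in 2-DG). Of 10 neural genes, *Irx3*, *Sox1* and *Pax6* rose and *Nkx6-1* fell (4 and 2 with the block; 198 to 446 CPM and 228 to 419 CPM). Of 4 germ cell genes tested, *Tfap2c* rose (1.58), and with the block 2 rose. Of 6 endoderm and 4 endothelial and blood genes none was called without the block. With it, 2 endoderm genes rose and 2 fell, and 3 endothelial and blood genes fell. The part of these cell type genes in the levels of the 8 methylation genes was not tested.

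**Figure D5:**
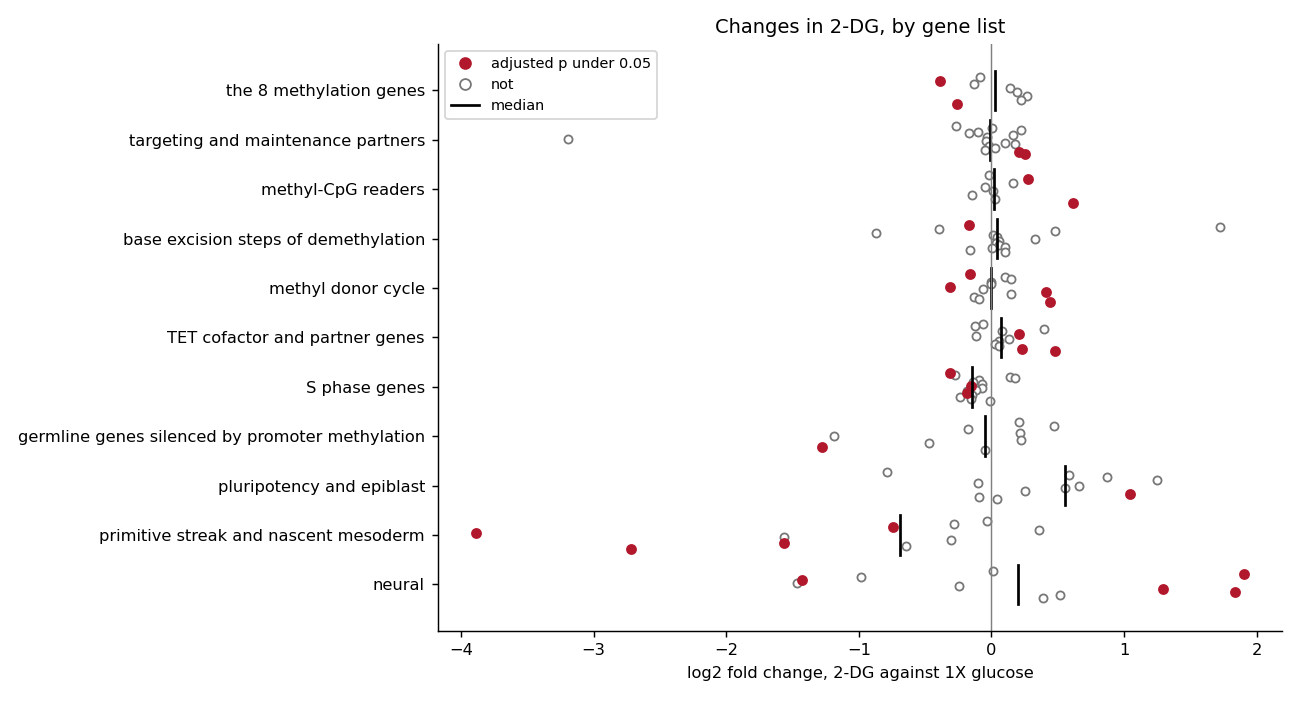
Log2 fold change between 2-DG and 1X glucose (x axis) of every tested gene in 11 gene lists (y axis); filled points passed an adjusted p of 0.05 and the black bar is the median of the list. The 8 methylation genes spread between −0.39 and 0.27 around a median of 0.03, and the S phase genes around −0.14.

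Finally, the genes most like each of 7 members (*Dnmt3l* had too few counts) across the 12 libraries were found by the Pearson correlation of log2 CPM, over 11962 genes with a mean of at least 100 counts. These values are a description, since the libraries share passages and treatments. The closest to *Uhrf1* were *Bcas3* (0.971), *Tfap4* (0.970) and *Gpc1* (0.968), and to *Dnmt1* *Supt6* (0.966), *Trp53bp2* (0.958) and *Rgl1* (0.956). *Dnmt3a* was most like *Ryr3* (0.982), *Fyttd1* (0.9751) and *Ptbp3* (0.974), and *Dnmt3b* like *Myo1e* (0.936), *Slc12a4* (0.932) and *Nup133* (0.932). *Tet3* followed *Srcap* (0.990), *Rapgef1* (0.989) and *Usp24* (0.985), and *Tet1* followed *Etl4* (0.964), *Klhl42* (0.945) and *Ubn2* (0.945). The closest to *Tet2* were *Sort1* (0.915), *Zmynd11* (0.904) and *Smarcc2* (0.897).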

How the data were processed

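PolyA RNA of 12 gastruloid libraries was sequenced by the authors. Per the labels and the study's methods, they trimmed reads with Trim Galore, aligned them with HISAT2 to mm10, removed duplicates with Picard and ran StringTie; their versions are not given in the sources used here. The authors deposited estimated counts of 120312 RefSeq transcripts per library, all whole numbers, and 3 tables of log2 fold changes and p-values from DESeq2, which were not used. Transcripts were named by the RefSeq table of GRCm38.p6 (all 120312 matched) and added up per gene. The members and the gene lists were chosen with earlier results of these data known.

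The 4 groups were fitted together with edgeR 4.0.16 in R 4.3.3 (filterByExpr, TMM, glmQLFit, glmQLFTest; two-sided), adjusted by Benjamini-Hochberg over all genes tested, with a threshold of 0.05. Standard errors were taken from the F statistic. Named genes are the 8 members, up to 3 called genes of each list and direction, and the 3 closest genes per member. Genes of the marker lists are named as well. *Hells*, *Cdca7*, *Usp7*, *Prdm14*, *Tdg* and *Dazl* were added after their values were seen. Passages come from the titles, so libraries of 1 passage were taken as pairs: their deviations from the group means correlated at 0.0963 to 0.623 across genes, against −0.440 to 0.191 between passages. Start sites and exon lengths came from GENCODE M21. The fit was tested on simulated data for 2-DG against 1X glucose: 71 of 200 genes with a log2 change of 0.5 were recovered (16712 genes tested), and 167 of 200 with a change of 1 (16726 genes tested). The simulated libraries held no passage effect, and the changed genes had a mean of at least 100 counts. Members other than *Dnmt3l* changed by −0.39 to 0.27 in this comparison, and recovery of changes of that size was not measured. Alternatives were no filter, a mean of at least 100 counts, median-of-ratios factors, the block, the most abundant or the curated (NM) transcripts alone, DESeq2 1.42.0, only the groups compared, leaving out each library, and leaving out passage 13, the last chosen after seeing the data. One gene of the methyl donor list is not reported here.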

Additional observations from a re-analysis of the deposited data

How the results depend on the processing

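With the passage as a replicate block, 7001 genes were called between 2-DG and 1X glucose, 7305 between 2-DG and no glucose and 136 between 3X and no glucose, and 5 of the 8 methylation genes between 2-DG and 1X glucose; beside the calls given with the results, the block changed no other call of the 8. The most abundant transcript alone called 653, 775 and 1 genes in these 3 comparisons, 2 genes between 3X and 1X glucose, 1879 between passages, and 0, 0 and 1 of the 8 for 2-DG against 1X glucose, 2-DG against no glucose and passages. Curated transcripts alone called 1076, 1213 and 5 genes in the same 3 comparisons, 5 between no glucose and 1X glucose and 3018 between passages, with 1 of the 8 for 2-DG against 1X glucose and 2 for passages. DESeq2 called 12 genes between no glucose and 1X glucose, 2 between 3X and 1X glucose and 31 between 3X and no glucose. Fitting only the groups compared gave 1896 genes for 2-DG against 1X glucose and 0 both for no glucose against 1X glucose and for 3X against no glucose, and leaving out passage 13 gave 4 for the last. Leaving out 1 library gave 1734 to 2352 genes and 1 to 2 of the 8 for 2-DG against 1X glucose, 2051 to 2619 genes and 1 to 3 of the 8 for 2-DG against no glucose, and 1 to 3 genes for no glucose against 1X glucose and for 3X against no glucose. The single-transcript settings follow the division between transcripts by construction; the cause of the other shifts was not tested.

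Signs turned only for values that were not called in the fit without a passage block. One of them, *Tet2* in 2-DG against 1X glucose, was called with the block. The log2 ratio of *Tet1* to *Tet3* was 1.28 with curated transcripts, and −0.101 to 0.0436 over the fits that left out 1 library. For 2-DG against 1X glucose, *Tet2* was at −2.72 with the most abundant and −0.50 with curated transcripts, and *Dnmt3l* at −0.39 to 0.43 over the fits without 1 library. For 2-DG against no glucose, *Tet2* was at 0.00149 without a filter, 0.00153 with at least 100 counts, 0.29 with curated transcripts and −0.0474 to 0.0654 without 1 library, *Tet3* at −0.000121 to 0.22 without 1 library, *Tet1* at −1.50 with curated transcripts, and *Dnmt3l* at 0.93 with the most abundant transcript and −0.90 to 0.18 without 1 library. *Tet2* in no glucose against 1X glucose was at −0.79 with curated transcripts. Of 336 other values of the 8 genes between glucose levels, 56 changed sign and 0 were called. Depth limits *Dnmt3l*, at 0 to 13 counts.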
